A study of Mus musculus with 8 samples.

Results

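A set of 50 genes of fatty acid metabolism was examined in mouse neural stem cells from the subventricular zone, a niche lining the lateral ventricles. The genes were chosen by symbol and cover synthesis, desaturation, elongation, activation, oxidation and storage of fatty acids. All 50 were found among the 45777 genes of the deposited table, and all 50 had enough reads to enter the tests, which covered 17644 genes. The clearest patterns were in single genes rather than in whole groups. Fatty acid synthase (Fasn) was highest in the 2 libraries coded CV, while the elongase Elovl5 and the acyl-CoA synthetase Acsl3 were lowest there. Of the synthesis and beta-oxidation genes, Fasn, Acacb, Acss2, Acads, Acadl, Ehhadh, Hadhb and Decr1 passed an adjusted p of 0.05 in at least 1 comparison. Only Fasn among them had calls that held under every alternative tried. Acly, Acaca, Thrsp, Acadm, Acadvl, Hadha, Hadh and Acaa2 passed in no comparison.

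The series holds 8 total RNA samples in 4 groups of 2. Cells were labelled either as control with wild-type genotype (WT) or as S1PR1-deficient with an S1pr1 deletion, S1PR1 being a receptor for sphingosine-1-phosphate (S1P). Each genotype was treated with ApoM-HDL or with ApoM+HDL, names that read as high-density lipoprotein without and with apolipoprotein M, which carries S1P. The labels do not give strain, age, treatment time, dose or how the deletion was made, and every group received a lipoprotein. The question was how ApoM, S1P and S1PR1 act on these cells.

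The table names its 8 libraries by the codes CH, CV, GH and GV, each followed by the number 1 or 2. The letter C was read as control and G as S1PR1-deficient by elimination, since no label holds these codes. The letters H and V could not be tied to the lipoprotein preparations, so H and V are compared by letter and no direction is given for apolipoprotein M. The level of the targeted gene does not bear out the reading of G. S1pr1 stood at 25.4 and 23.2 CPM (the count scaled to library depth) in CH, 20.7 and 16.0 in CV, 23.2 and 21.2 in GH and 22.2 and 22.4 in GV. No lower level was called in G under either letter, with a log2 difference of -0.13 ± 0.11 (standard error, SE) under H (adjusted p = 0.71) and 0.28 ± 0.12 under V (adjusted p = 0.095). Within C, S1pr1 was higher in CH than in CV (0.40 ± 0.12, adjusted p = 0.043 by edgeR's test described below). The count is over the whole gene, and which part was deleted is not given, so this level does not settle the genotype. Each direction below is therefore between libraries coded C and G. The labels do not say whether the 2 replicates of a group came from separate cultures or animals, and p-values then measure only the spread between these libraries.

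Fatty acids are built in the cytosol from acetyl-CoA. ATP citrate lyase (Acly) and acetyl-CoA synthetase (Acss2) supply that acetyl-CoA, acetyl-CoA carboxylase (Acaca) turns it into malonyl-CoA, and fatty acid synthase joins the units into palmitate. Desaturases and elongases then shape the chain, acyl-CoA synthetases activate it, and the product is put into membrane lipids, stored as triglyceride in lipid droplets or carried by the carnitine shuttle into mitochondria for beta-oxidation. Neural stem cells of the adult brain are known to use both new fatty acid synthesis and fatty acid oxidation, and malonyl-CoA links the pathways by inhibiting carnitine palmitoyltransferase 1.

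In the libraries coded C, 4 members differed between H and V and also had a different H minus V change in the G libraries: Fasn, Acads, Elovl5 and Acsl3. Promoter windows for them are shown because the motifs of known lipogenic and general promoter factors can be read in them directly. Each window is 250 bases from RefSeq on GRCm38.p6, printed 5′ to 3′ on the gene's strand. For Acads, Elovl5 and Acsl3 it ends just before the RefSeq gene start. The RefSeq span of Fasn runs to chr11:120825166. On the minus strand its window therefore lies inside that span and not upstream of the whole gene. Capitals mark a CCAAT box (CCAAT or its reverse ATTGG), a GC box (GGGCGG or CCGCCC) or an E-box (CACGTG). Fasn lies on the minus strand at chr11:120824548-120824797, Acads on the minus strand at chr5:115119347-115119596, Elovl5 on the plus strand at chr9:77917115-77917364 and Acsl3 on the plus strand at chr1:78657575-78657824.
Fasn: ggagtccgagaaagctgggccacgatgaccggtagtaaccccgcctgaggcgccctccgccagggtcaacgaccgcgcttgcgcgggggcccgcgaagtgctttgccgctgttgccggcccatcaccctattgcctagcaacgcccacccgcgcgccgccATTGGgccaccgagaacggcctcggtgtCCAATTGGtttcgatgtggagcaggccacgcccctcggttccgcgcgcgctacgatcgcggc
Acads: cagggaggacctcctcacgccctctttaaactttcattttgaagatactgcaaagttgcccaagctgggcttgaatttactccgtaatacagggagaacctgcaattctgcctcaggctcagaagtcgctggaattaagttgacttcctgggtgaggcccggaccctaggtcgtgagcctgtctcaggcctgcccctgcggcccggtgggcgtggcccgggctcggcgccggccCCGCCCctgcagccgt
Elovl5: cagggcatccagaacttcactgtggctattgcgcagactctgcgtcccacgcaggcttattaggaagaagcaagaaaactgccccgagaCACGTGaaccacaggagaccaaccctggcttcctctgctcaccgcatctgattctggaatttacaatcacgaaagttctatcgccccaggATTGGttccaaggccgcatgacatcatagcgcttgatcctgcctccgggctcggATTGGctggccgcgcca
Acsl3: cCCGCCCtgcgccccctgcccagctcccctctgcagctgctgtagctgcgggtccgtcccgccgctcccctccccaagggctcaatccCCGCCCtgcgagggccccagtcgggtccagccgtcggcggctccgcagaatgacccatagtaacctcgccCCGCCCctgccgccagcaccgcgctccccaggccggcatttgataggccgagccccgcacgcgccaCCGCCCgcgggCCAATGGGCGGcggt

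The Fasn window held 3 CCAAT boxes, and 2 of them overlap on opposite strands. The Acads window held 1 GC box and no CCAAT box. The Elovl5 window held 2 CCAAT boxes and 1 E-box, and the Acsl3 window held 5 GC boxes, the last of which directly adjoins its 1 CCAAT box. Such motifs are common in promoters. Of 32851 windows of this length, 33.8% held a CCAAT box, 32.7% a GC box and 6.02% an E-box. Windows were found for 41 of the 50 members, and of these 20 held a CCAAT box (48.8%), 25 a GC box (61.0%) and 3 an E-box (7.32%). The 32851 windows were not limited to expressed genes or to 1 per gene, while each member has 1. The shares of members and of all windows are therefore not on an equal footing. These are letter matches, not measured binding.

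The libraries held 39619305 to 45698186 counts each. Neural stem cell markers were high as a sum, but not each of them. The summed level of 10 stem cell and radial glia genes was 5872 to 5965 CPM in C and 5105 to 5551 CPM in G. Most of it came from Vim, Fabp7, Slc1a3 and Nes. Fabp7 had a mean of 1957 CPM in CH, 1796 in CV, 1652 in GH and 1379 in GV. Within it Nes and Sox2 were high, but Pax6 lay at 17.6 to 20.8 CPM and Prom1 at 0.95 to 2.60 CPM. Gfap, which is in the list and is also an astrocyte gene, was below 1 CPM in every library. By edgeR's test described below, 3 of the 10 were lower in CH than in CV and 0 higher, against 10.7% of all genes called. They were Sox2 (-0.28), Notch1 (-0.41) and Prom1 (-1.18) on the log2 scale. Between GV and CV, 2 were higher and 4 lower, against 25% of all genes. Sox9 (0.30) and Slc1a3 (0.18) were the higher ones, and Nes, Vim (-0.18), Notch1 (-0.33) and Fabp7 (-0.38) the lower ones. The Fabp7 call did not hold once a trend with exon length was taken out, as given below. Nes was lower in G than in C under H (-0.28, adjusted p = 0.040) and under V (-0.28, adjusted p = 0.0052). Genes of the oligodendrocyte lineage, almost all of the sum from Olig2 and Cspg4, moved with the codes, at 645.3 and 629.9 CPM in CH, 779.5 and 797.7 in CV and 702.2 to 724.0 in G. Cspg4 (-0.60, adjusted p = 0.00099) and Olig2 (-0.21, adjusted p = 0.021) were lower in CH than in CV on the log2 scale by edgeR's test described below, and the H minus V change of both differed between G and C. Sox10 and Mog had at most 2 counts in any library. Neuron markers summed to 32.2 and 30.3 CPM in CH, 39.3 and 42.6 in CV, 39.8 and 33.5 in GH and 44.6 and 40.8 in GV, and 3 of 6, Rbfox3, Snap25 and Syt1, were lower in CH than in CV. CV, where Fasn was highest and Elovl5 and Acsl3 lowest, thus also had the highest oligodendrocyte-lineage sum. Ependymal markers summed to at most 19.2 CPM, endothelial markers to at most 3.07 CPM, and microglial and pericyte markers to under 1 CPM. The part of these levels in the results was not tested. In bulk RNA, fewer cells of a type and less RNA per cell cannot be told apart. A measure of the libraries that moves with the codes is exon length. Over 13694 genes, the log2 difference of GV minus CV had a median of -0.18 in the 20% of genes with the shortest exons and 0.09 in that with the longest, and that of GH minus GV ran from 0.14 to -0.07. The small noncoding RNAs 7SL, 7SK and Rpph1 took 4.07% to 4.83% of counts in C, 3.19% to 3.22% in GH and 1.92% to 2.22% in GV.

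**Figure D1:**
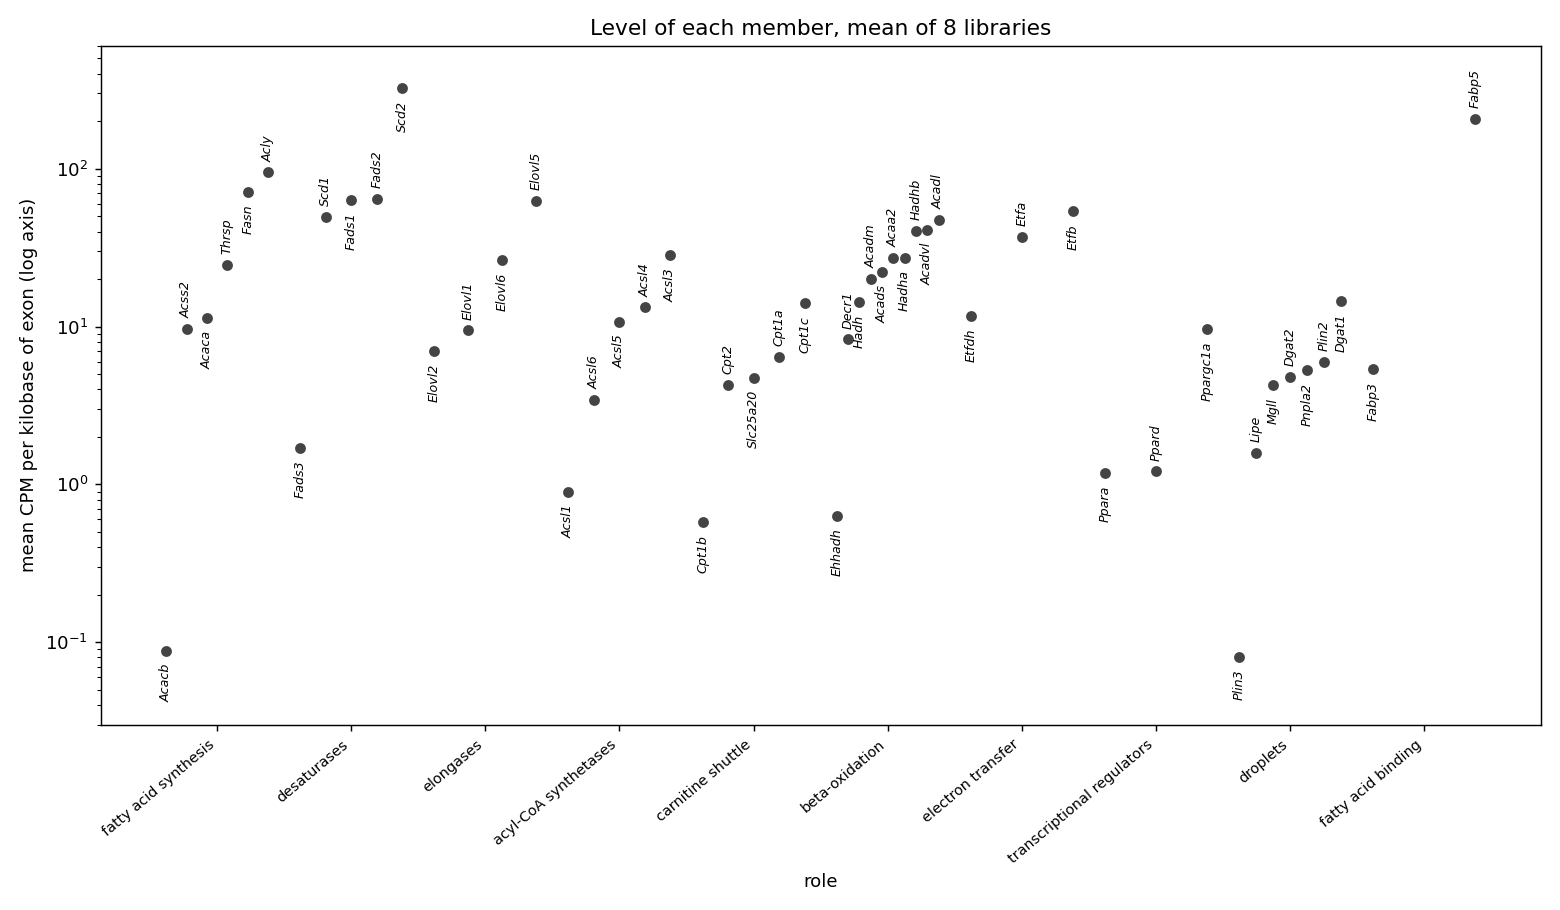
Level of each of the 50 genes as mean CPM per kilobase of annotated exon over the 8 libraries (log axis), grouped by role on the horizontal axis, 1 point per gene. Scd2 (324.8) and Fabp5 (205.6) stand highest, and Plin3 and Acacb lie below 0.1.

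Acly and Fasn of the synthesis genes and Scd2, Fads2 and Fads1 of the desaturases were among the most abundant members. Per kilobase of exon, the mean level over the 8 libraries was 324.8 CPM for the desaturase Scd2, 205.6 for the fatty acid binding protein Fabp5, 94.7 for Acly, 71.6 for Fasn, 64.5 for Fads2, 63.5 for Fads1 and 62.4 for Elovl5. Fads2, Fads1 and Elovl5 do not differ beyond the spread of their libraries in this order. Scd2, the main stearoyl-CoA desaturase of brain, was far above its paralog Scd1 at 49.5. Other synthesis and desaturation genes were lower, among them Thrsp at 24.4, Acaca at 11.35, Acss2 at 9.65 and Fads3 at 1.70. Etfb, of electron transfer, stood at 53.6. Enzymes of beta-oxidation were led by Acadl at 47.2, Acadvl at 41.2 and Hadhb at 40.3. The carnitine shuttle was lower, with the brain form Cpt1c at 14.0, Cpt1a, the liver form, at 6.42, Cpt2 at 4.27 and the muscle form Cpt1b at 0.57. Droplet genes ran from Dgat1 at 14.5 and Plin2 at 5.96 to Plin3 at 0.08. Annotated exon length can exceed that of the isoform in use, which lowers such a value. Of the 50 members, 44 had a mean of 5 CPM or more, and the other 6 (Acacb, Cpt1b, Ehhadh, Ppara, Plin3 and Fabp3) are read with their counts below.

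Each gene was tested with edgeR's quasi-likelihood test, two-sided, and p-values were adjusted by Benjamini-Hochberg over all 17644 genes. A gene is called changed at an adjusted p under 0.05. Differences are log2 values with their SE, H minus V or G minus C. Comparisons that share libraries, such as CH minus CV and GV minus CV, are not independent, and their values are set side by side only.

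In libraries coded C, 2 members were higher and 8 were lower in CH than in CV, or 20% of 50, against 10.7% of all genes called (5.68% higher and 4.99% lower). The median SE here was 0.07 for members and 0.11 for all genes, and it was lower for members in every comparison. Shares of members and of all genes are therefore not on an equal footing. With DESeq2 the split was 4 higher and 5 lower, with no adjusted p for Acacb and Ehhadh. The median member difference was -0.09, and that of all genes -0.01. In G libraries no member was called between GH and GV, against 1.28% of all genes (1.14% higher and 0.136% lower). At an unadjusted p under 0.05 there were 7 of the 50 members, against 2607 of all 17644 genes. DESeq2 called 1 member, Fabp5, and 668 of all genes. Between GH and CH, 3 members were higher and 1 lower (8%), against 1.81% of all genes (0.759% higher and 1.05% lower). Between GV and CV, 7 were higher and 6 lower (26%), against 25% of all genes (11.6% higher and 13.4% lower), so the share of members called is near that of all genes. The H minus V change differed between G and C (the interaction, or difference of changes) for 5 members (10%), against 7.35% of all genes (3.93% higher in G and 3.41% lower). Those 5 were Fasn, Acads and Etfb, higher, and Elovl5 and Acsl3, lower. Of the 50 members, 21 were called in at least 1 comparison and 29 in none.

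The number of calls rested on single libraries, among all genes as well as among members. In the fits below, calls over all genes moved the same way, with ranges given at the end. The falls are thus not particular to the members. Without CV2, the count of members called fell to 1 between CH and CV, to 5 between GV and CV and to 0 for the difference of changes. Without CH2, 2 were called between CH and CV and 0 between GH and CH. Without CV1 these 2 counts were 4 and 1, and 6 were called between GV and CV. Without GH1 or GH2, 0 were called between GH and CH and 0 for the difference of changes, and without CH1 or CV2 just 1 between GH and CH. Between GV and CV, 8 were called without GH1 or GV1. For the difference of changes, 2 were called without CH2, 3 without CV1 and 8 without GV2. Of the 32 calls on members, 5 held under every alternative tried: Fasn between CH and CV, and Fasn, Acsl3, Acsl4 and Fabp5 between GV and CV.

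**Figure D2:**
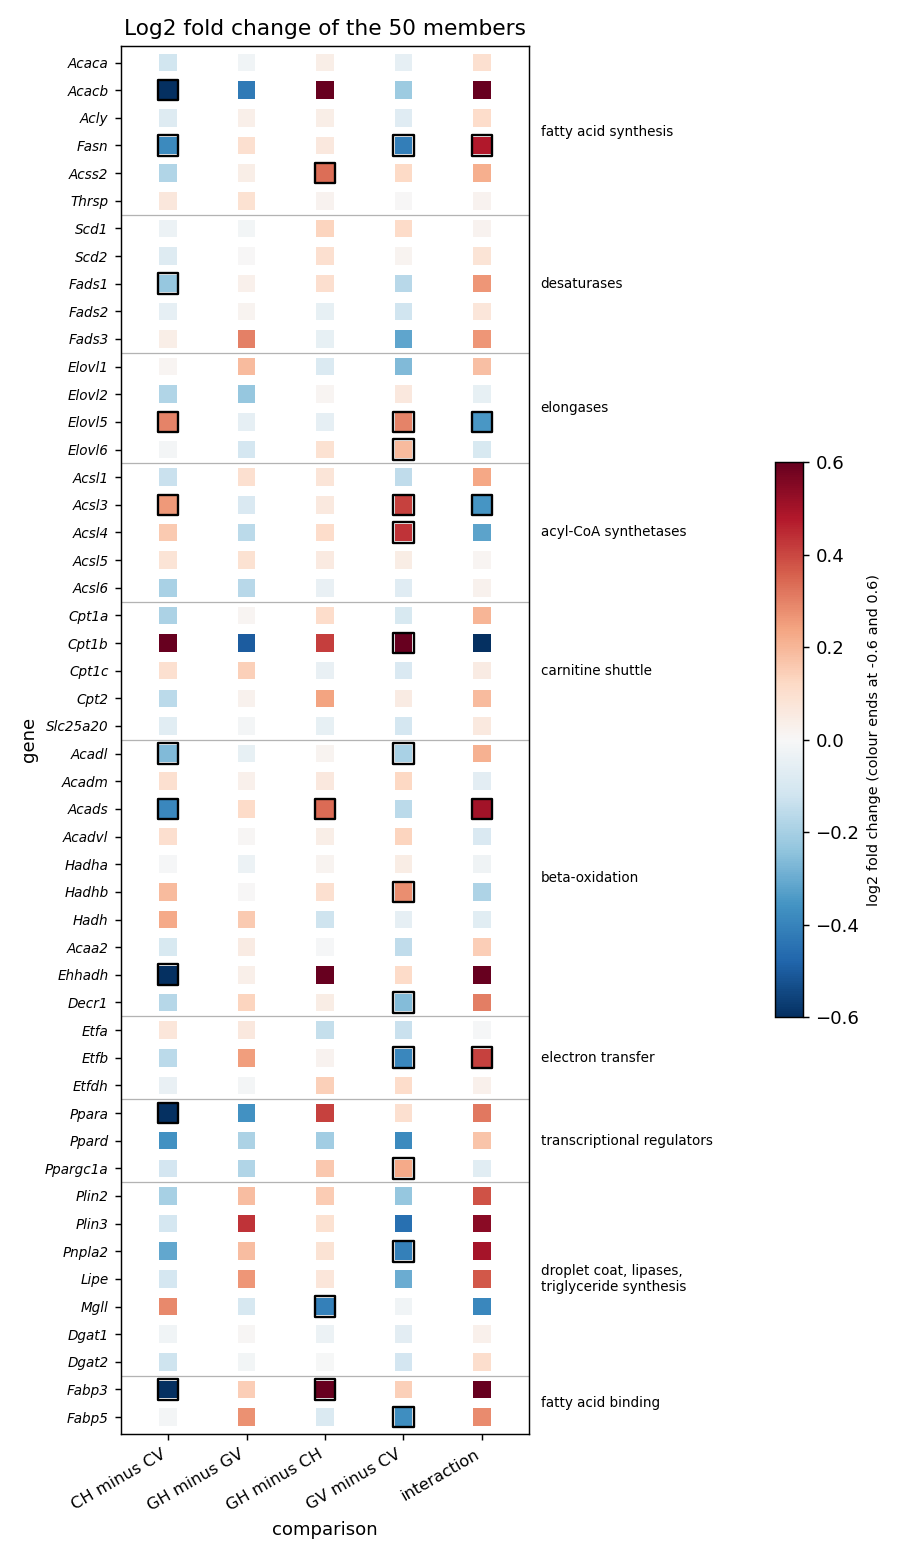
Log2 difference of each of the 50 genes (rows, by role) in the 4 pairwise comparisons and in the difference of changes (columns), coloured from blue (lower) to red (higher) with colour limits of -0.6 and 0.6. Black squares mark an adjusted p under 0.05, and the column of GH minus GV has none.

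Of 6 genes of fatty acid synthesis, Fasn and Acacb were called between CH and CV, Fasn between GV and CV and Acss2 between GH and CH. Fasn stood at 769 and 680 CPM in CH, 943 and 945 in CV, 741 and 774 in GH and 724 and 694 in GV. Both CV libraries lay above the other 6 libraries, which overlap one another. From CV to CH, Fasn fell by 23.3% (log2 -0.38 ± 0.06, adjusted p = 0.0040), and from CV to GV it fell by 24.9% (-0.41 ± 0.06, adjusted p = 0.00080). GH and GV differed by 0.10 ± 0.06 (adjusted p = 0.54), GH and CH by 0.07 ± 0.06 (adjusted p = 0.74). The change from V to H differed between G and C by 0.48 ± 0.09 (adjusted p = 0.013), a call lost without CV2, GH1 or GH2 (adjusted p = 0.070, 0.065 and 0.075). The steps that feed Fasn did not share its pattern at the threshold. Acly, which splits citrate, lay at 477 to 526 CPM in all 8 libraries, and no difference was called. Acaca, the enzyme that makes malonyl-CoA, lay at 184 to 210 CPM, with CH minus CV at -0.12 ± 0.06 (adjusted p = 0.25). Thrsp, a lipogenic cofactor, lay at 49.7 to 57.4 CPM with no call.

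Acss2, which makes acetyl-CoA from acetate, was higher in GH than in CH. It stood at 89.5 and 80.3 CPM in CH, 100.2 and 91.9 in CV, 105 and 109 in GH and 101 and 107 in GV. Every GH and GV library lay above all C libraries. The difference was 0.34 ± 0.07 between GH and CH (adjusted p = 0.036) and 0.12 ± 0.07 between GV and CV (adjusted p = 0.26). The first call was lost with a block for the replicate number and without any 1 of the CH, CV or GH libraries. Acacb, the mitochondrial form of acetyl-CoA carboxylase, was close to the detection limit. It had 10 and 0 counts in CH, 45 and 63 in CV, 34 and 34 in GH and 42 and 55 in GV. It was called lower in CH than in CV (-3.40 ± 0.72, adjusted p = 0.014), and without CH2, the library with no count, the difference was -2.36 with an adjusted p of 0.058. Without CV2 the adjusted p was 0.089, and DESeq2 gave it no adjusted p.

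**Figure D3:**
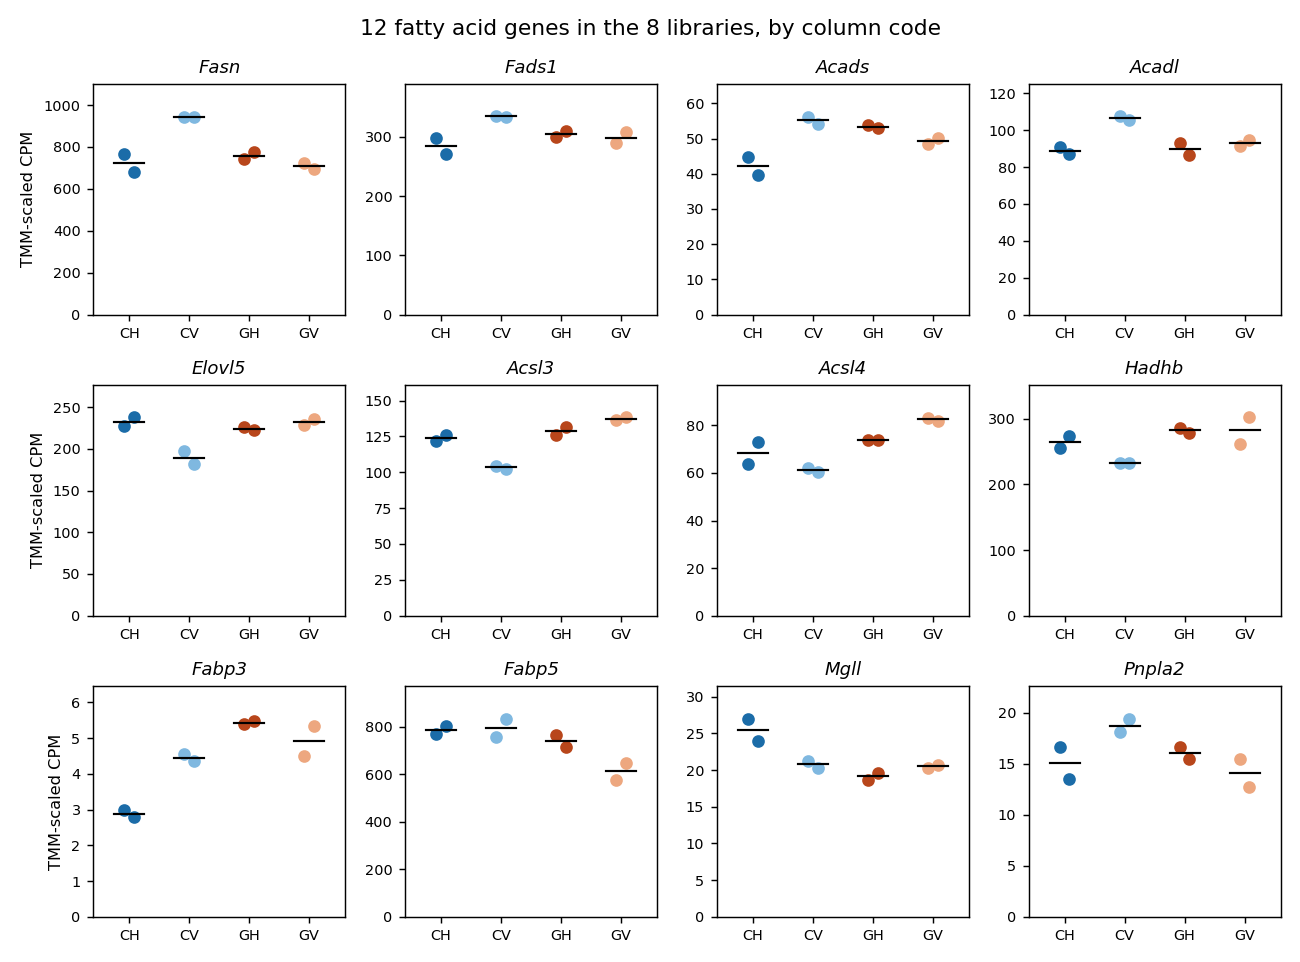
CPM of 12 members in each of the 8 libraries, 1 panel per gene, with points for libraries and a line for the mean of the 2 libraries of a code, on axes that start at 0. Fasn is highest in CV, Elovl5 and Acsl3 are lowest in CV, and Acads is lowest in CH.

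Of 5 desaturases, 1 was called, Fads1. Scd2, which places the first double bond into stearoyl- and palmitoyl-CoA, lay at 1678 to 1833 CPM in the 8 libraries, and its 4 pairwise differences lay between -0.08 and 0.09 with none called. Scd1 lay at 227 to 256 CPM. Its values in G, 249 to 256 CPM, were all above those in C, 227 to 242 CPM, but the differences were 0.13 ± 0.06 under H (adjusted p = 0.31) and 0.11 ± 0.06 under V (adjusted p = 0.16). Scd1 and Scd2 are closely similar neighbours on chromosome 19 with Scd3 and Scd4, so the split of reads between them is uncertain. Fads2, the first desaturase of polyunsaturated fatty acids, lay at 201 to 223 CPM with no call. Fads1, the next desaturase of that route, stood at 298 and 271 CPM in CH, 336 and 333 in CV, 299 and 310 in GH and 289 and 308 in GV. Its CV libraries were the highest of the 8. CH was lower than CV (-0.23 ± 0.06, adjusted p = 0.034), a call lost without CH2, CV1, CV2, GH1 or GH2 (adjusted p = 0.25, 0.14, 0.16, 0.069 and 0.069) and with a block for the replicate number (adjusted p = 0.056). The value of GV minus CV was -0.16 ± 0.06 (adjusted p = 0.072).

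Elongases moved in 2 of 4 genes. Elovl5, which lengthens polyunsaturated fatty acids, stood at 227 and 238 CPM in CH, 197 and 182 in CV, 226 and 222 in GH and 229 and 236 in GV. Both CV libraries lay below the other 6. Elovl5 was 22.8% higher in CH than in CV (0.30 ± 0.06, adjusted p = 0.011) and 22.8% higher in GV than in CV (0.30 ± 0.06, adjusted p = 0.0039). The change from V to H differed between G and C by -0.35 ± 0.08 (adjusted p = 0.032). Without CV2 these adjusted p-values were at most 0.15, and none of the 3 calls held. The call between CH and CV was also lost without CH2 (adjusted p = 0.098), and the difference of changes without CH2, GH1 or GH2 or with the block (adjusted p up to 0.14). Elovl6, which extends palmitate to stearate, was at 152 and 168 CPM in CH, 165 and 158 in CV, 172 and 170 in GH and 188 and 180 in GV. GV lay above the other 6 libraries, and GV minus CV was 0.19 ± 0.06 (adjusted p = 0.045). Taking out the trend with exon length gave 0.15 (adjusted p = 0.091), and the call was also lost with the block and without any 1 of the CV, GH or GV libraries (adjusted p up to 0.23). Elovl1 and Elovl2, elongases of saturated and of very long polyunsaturated chains, had no call.

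Of 5 acyl-CoA synthetases, which activate free fatty acids, Acsl3 and Acsl4 were called. Acsl3, a form of the endoplasmic reticulum and of growing lipid droplets, stood at 122 and 126 CPM in CH, 104 and 102 in CV, 126 and 132 in GH and 137 and 138 in GV. Again both CV libraries were below the other 6. CH was 19.8% higher than CV (0.26 ± 0.06, adjusted p = 0.016) and GV was 32.9% higher than CV (0.41 ± 0.06, adjusted p = 0.00050). The change from V to H differed between G and C by -0.35 ± 0.08 (adjusted p = 0.026). The first and the last of these calls were lost without CH2, CV1 or CV2, the last also without GH1 or GH2, with adjusted p-values of up to 0.13 and 0.12. Acsl4, which prefers arachidonic acid, stood at 63.6 and 73.0 CPM in CH, 62.2 and 60.2 in CV, 73.8 and 73.9 in GH and 83.2 and 82.0 in GV. It was 1.35-fold as high in GV as in CV (0.43 ± 0.07, adjusted p = 0.0014), and no library decided that call. GH minus CH was 0.11 ± 0.07 (adjusted p = 0.57). Acsl5 and Acsl6 lay at 48.0 to 55.5 and 31.2 to 37.5 CPM, Acsl1 at 8.23 to 10.9 CPM, and none of the 3 was called in any comparison.

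The carnitine shuttle showed no call apart from Cpt1b. Cpt1a, the entry step that malonyl-CoA inhibits, lay at 45.6 and 46.0 CPM in CH, 51.5 and 53.0 in CV, 45.9 and 52.8 in GH and 48.2 and 49.7 in GV. Its CH minus CV difference was -0.19 ± 0.08 (adjusted p = 0.14). Cpt1c lay at 71.9 to 86.9 CPM, Slc25a20, the carnitine carrier of the inner membrane, at 20.7 to 25.2 CPM, and Cpt2, which returns the chain to coenzyme A, at 8.32 to 11.5 CPM. Cpt1b had 111 and 23 counts in CH, 28 and 42 in CV, 69 and 108 in GH and 149 and 120 in GV. The 2 CH libraries differed by more than any other pair. GV minus CV was 1.87 ± 0.55 (adjusted p = 0.026), and the call was lost without CV1, CV2 or GV1 (adjusted p = 0.13, 0.10 and 0.090). Cpt1b lies next to Chkb, with which it forms read-through transcripts, so the source of these few reads is uncertain.

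Of the 10 members of beta-oxidation, 3 were lower in CH than in CV and none was higher. Acads, the short-chain acyl-CoA dehydrogenase, stood at 44.7 and 39.6 CPM in CH, 56.2 and 54.1 in CV, 53.8 and 53.0 in GH and 48.4 and 50.1 in GV. Here CH, not CV, stood apart, with both libraries below the other 6. From CV to CH, Acads fell by 23.7% (-0.39 ± 0.08, adjusted p = 0.0085), and GH was higher than CH by 0.34 ± 0.08 (adjusted p = 0.041). The change from V to H differed between G and C by 0.51 ± 0.11 (adjusted p = 0.020). Without CH2, CV1 or CV2 none of these 3 calls held, with adjusted p-values of up to 0.097, 0.20 and 0.080, and the last was also lost without GH1 or GH2 (0.097 and 0.084). The call between GH and CH was also lost without CH1, GH1 or GH2 (adjusted p = 0.061, 0.31 and 0.24), with the block (0.061) and with only those 4 libraries (0.053). Acadl, the long-chain form, stood at 90.7 and 87.0 CPM in CH, 108 and 105 in CV, 93.1 and 86.6 in GH and 91.5 and 94.7 in GV, so that its CV libraries were the highest. It was lower in CH than in CV (-0.26 ± 0.06, adjusted p = 0.022) and lower in GV than in CV (-0.20 ± 0.06, adjusted p = 0.037). The first call was lost without CH2, CV1 or CV2 (adjusted p up to 0.15). The second was -0.06 with an adjusted p of 0.54 once the trend with exon length was taken out, and was also lost with upper-quartile scaling, without a filter, with only those 4 libraries, and without any 1 of the CV, GH or GV libraries (adjusted p up to 0.16).

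Ehhadh, the bifunctional enzyme of peroxisomes, had 39 and 43 counts in CH against 65 and 106 in CV, 96 and 90 in GH and 118 and 77 in GV. CH was lower than CV (-1.08 ± 0.29, adjusted p = 0.037), a call lost with the block, with only those 4 libraries, and without CH1, CH2, CV2, GH1 or GH2 (adjusted p up to 0.24). The trifunctional protein of mitochondria is made of the products of Hadha and Hadhb, a gene pair that lies side by side on chromosome 5. Hadha lay at 228 to 246 CPM with differences between -0.04 and 0.04. Hadhb stood at 256 and 274 CPM in CH, 233 and 232 in CV, 287 and 279 in GH and 262 and 302 in GV, with CV lowest. GV minus CV was 0.28 ± 0.07 (adjusted p = 0.012) and was lost without CV1, CV2 or GV2 (adjusted p up to 0.082). Decr1, an auxiliary enzyme for unsaturated chains, stood at 33.6 and 37.1 CPM in CV and 28.2 and 30.9 in GV. The difference of -0.26 ± 0.09 (adjusted p = 0.044) had an adjusted p of 0.057 without the length trend. It was also lost with DESeq2, upper-quartile scaling, no filter or only those 4 libraries, and without any 1 of CV1, CV2, GH1, GH2 and GV1 (adjusted p up to 0.28). Acadvl, the very long-chain dehydrogenase, lay at 101 to 118 CPM, Acadm, the medium-chain form, at 72.3 to 83.3 CPM, and the thiolase Acaa2 at 38.5 to 44.5 CPM, all with no call. Hadh was at 77.7 and 81.4 CPM in CH and 71.4 and 64.6 in CV, a difference of 0.23 ± 0.07 with an adjusted p of 0.052.

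Electron transfer flavoprotein passes electrons from the acyl-CoA dehydrogenases to the respiratory chain through its dehydrogenase Etfdh. Etfb, its beta subunit, stood at 61.9 and 63.4 CPM in CH, 65.3 and 74.7 in CV, 64.1 and 63.0 in GH and 53.2 and 53.6 in GV. Both GV libraries lay below the other 6. From CV to GV, Etfb fell by 23.7% (-0.39 ± 0.07, adjusted p = 0.0026), and the change from V to H differed between G and C by 0.41 ± 0.10 (adjusted p = 0.035). Etfb is a short gene, with 1164 bases of exon, and with the length trend taken out these values were -0.07 (adjusted p = 0.52) and 0.07 (adjusted p = 0.72). The second call was also lost without CH1, CH2, CV2, GH1, GH2 or GV1 (adjusted p = 0.065, 0.096, 0.16, 0.14, 0.12 and 0.071). Etfa, the alpha subunit, lay at 61.6 to 76.4 CPM and Etfdh at 80.5 to 94.0 CPM, with no call.

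**Figure D4:**
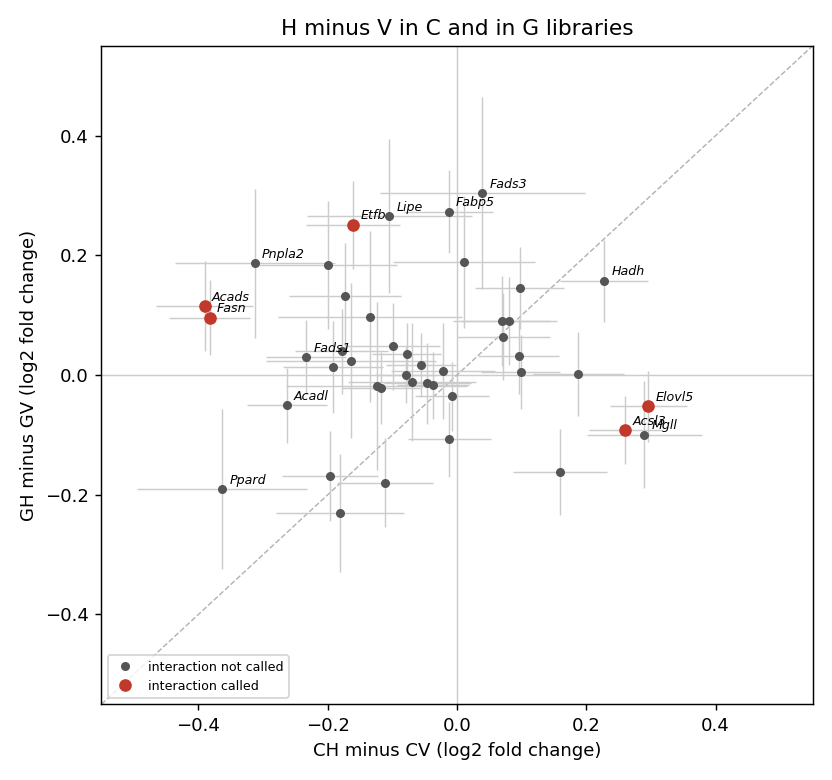
H minus V log2 difference in G libraries (vertical axis) against the same in C libraries (horizontal axis) for the 44 members with a mean of 5 CPM or more, with SE bars and red points for the 5 members whose H minus V change differed between C and G. Fasn and Acads lie left of 0, Elovl5 and Acsl3 lie right of it, and vertical values run from -0.23 to 0.30.

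Among the regulators, Ppara, a nuclear receptor that binds fatty acids and drives oxidation genes, was low. It had 131 and 141 counts in CH, 205 and 222 in CV, 203 and 148 in GH and 221 and 259 in GV. CH was lower than CV (-0.68 ± 0.19, adjusted p = 0.040), a call lost with the block and without CH1, CH2, CV1 or CV2 (adjusted p up to 0.21). Ppard, the related receptor that is widely expressed, stood at 9.81 and 7.74 CPM in CH, 11.6 and 11.0 in CV, 7.52 and 7.66 in GH and 8.94 and 8.38 in GV. Its highest libraries were CV, but neither CH minus CV (-0.36 ± 0.13, adjusted p = 0.10) nor GV minus CV (-0.38 ± 0.13, adjusted p = 0.052) was called. Ppargc1a, a coactivator of oxidation genes, stood at 54.0 and 60.2 CPM in CH, 62.9 and 60.5 in CV, 63.3 and 64.3 in GH and 75.4 and 69.1 in GV. GV was higher than CV by 0.23 ± 0.07 (adjusted p = 0.039). Without the length trend the value was 0.18 (adjusted p = 0.078), and the call was also lost with the block and without CV1, CV2, GH1, GH2 or GV1 (adjusted p up to 0.22).

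Lipid droplet genes showed 1 call in GH against CH and 1 in GV against CV. Pnpla2, the lipase that starts triglyceride breakdown, stood at 16.6 and 13.5 CPM in CH, 18.1 and 19.3 in CV, 16.6 and 15.4 in GH and 15.4 and 12.7 in GV. CV was highest, and GV was lower than CV by a log2 value of -0.41 ± 0.12 (adjusted p = 0.029). That call was lost with only those 4 libraries and without CV1, CV2, GH1 or GV2 (adjusted p up to 0.19). Mgll, which cleaves the last fatty acid and also breaks down the endocannabinoid 2-arachidonoylglycerol, stood at 27.0 and 24.0 CPM in CH, 21.3 and 20.3 in CV, 18.7 and 19.6 in GH and 20.3 and 20.7 in GV. CH lay above the other 6 libraries. GH was lower than CH (-0.41 ± 0.09, adjusted p = 0.040), and CH minus CV was 0.29 ± 0.09 (adjusted p = 0.056). The call was lost with the block, with only those 4 libraries and without any 1 of the CH, CV or GH libraries (adjusted p up to 0.31). Plin2, the droplet coat protein of most cells, lay at 17.2 to 23.0 CPM, and Dgat1 and Dgat2, which make triglyceride, at 42.3 to 48.6 and 12.5 to 17.6 CPM. None of the 3, nor the lipase Lipe at 8.17 to 10.8 CPM, was called. Plin3 had 7 to 19 counts in a library and allows no statement on change.

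The binding proteins carry fatty acids in the cytosol. Fabp5, the epidermal form also made by neural progenitors, stood at 771 and 803 CPM in CH, 755 and 832 in CV, 765 and 715 in GH and 577 and 648 in GV. Both GV libraries lay below the other 6. From CV to GV, Fabp5 fell by 22.8% (-0.37 ± 0.07, adjusted p = 0.0024), and -0.34 (adjusted p = 0.0017) without the length trend. GH minus GV was 0.27 ± 0.07 (adjusted p = 0.075). That value passed the threshold with DESeq2 (adjusted p = 0.0042), without a filter (0.016), with a stricter one (0.043) and without GV2 (0.012). Fabp3, the heart form, had 119 and 124 counts in CH, 177 and 191 in CV, 225 and 219 in GH and 204 and 224 in GV. CH was lowest, lower than CV (-0.63 ± 0.17, adjusted p = 0.037), and GH was higher than CH (0.92 ± 0.17, adjusted p = 0.018). The first call was lost with DESeq2, with the block, with only those 4 libraries and without any 1 of the CH, CV or GH libraries (adjusted p up to 0.20). The second was lost without any 1 of the CH or GH libraries (adjusted p up to 0.14).

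Other genes of the pathway were read from lists chosen for their function. Their counts stand beside 10.7% of all genes called between CH and CV, 1.81% between GH and CH and 25% between GV and CV. For the difference of changes the share of all genes was 7.35%. It was called higher for Nr1h2, Slc27a4, Dbi, Hsd17b10, Bdh1 and G0s2 and lower for Mbtps2, Hacd3 and Lpin3. Of 12 lipogenic regulators tested, 2 were higher in CH than in CV and 6 were called between GV and CV, 4 of them higher. Srebf1, which encodes the transcription factor SREBP-1 that drives Fasn and Scd genes, stood at 63.5 and 54.5 CPM in CH, 70.1 and 66.6 in CV, 40.6 and 45.2 in GH and 34.3 and 40.9 in GV. All 4 G libraries lay below all 4 C libraries. The differences were -0.46 ± 0.10 between GH and CH (adjusted p = 0.038) and -0.86 ± 0.10 between GV and CV (adjusted p = 0.00021). The first was lost with the block (adjusted p = 0.063) and without CH1, CV1, CV2, GH1 or GH2 (adjusted p = 0.27, 0.068, 0.068, 0.37 and 0.14), and no library ended the second. Mbtps2, a protease that releases SREBP from the membrane, stood at 31.2 and 34.3 CPM in CH, 24.7 and 22.6 in CV, 31.2 and 32.1 in GH and 32.8 and 33.9 in GV, with CV lowest. It was higher in CH than in CV (0.47 ± 0.08, adjusted p = 0.0053, lost without CH2 or CV2 with an adjusted p of up to 0.077) and higher in GV than in CV (0.50 ± 0.08, adjusted p = 0.0013). Nr1h2, the oxysterol receptor LXR beta that can drive Srebf1, was lower in GV than in CV (-0.52 ± 0.09, adjusted p = 0.0014). Of 7 genes that supply citrate and NADPH, none was called between CH and CV and 1, Idh1, between GV and CV.

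Of 10 further elongation and desaturation genes, 2 were higher in CH than in CV. Between GV and CV, 3 were higher and 1 lower. Hacd3, a dehydratase of the elongation cycle, was 0.31 ± 0.06 higher in GV than in CV (adjusted p = 0.0023), Hsd17b12, its ketoreductase, also 0.31 ± 0.06 (adjusted p = 0.0044), and Tecr, its last reductase, was lower (-0.38 ± 0.07, adjusted p = 0.0025). These steps of 1 cycle thus lay on both sides of 0. Of 8 uptake and binding genes tested, 2 were called between CH and CV and 6 between GV and CV, 2 of them higher. The transporter Slc27a4 stood at 40.4 and 37.4 CPM in CH, 46.4 and 50.2 in CV, 40.2 and 41.6 in GH and 35.7 and 36.9 in GV. Its GV minus CV difference was -0.41 ± 0.08 (adjusted p = 0.0022). Dbi was the only gene of these lists called between GH and GV (0.32 ± 0.06, adjusted p = 0.033), against 1.28% of all genes. Its difference of changes was 0.41 ± 0.09 (adjusted p = 0.024). Dbi has 1422 bases of exon, and over all genes in the bin of shortest exons GH minus GV had a median of 0.14. Fabp7, the brain form and a radial glia marker, was lower in GV than in CV (-0.38 ± 0.08, adjusted p = 0.0035), a value of -0.07 (adjusted p = 0.37) without the length trend. Of 6 tested targets of PPAR receptors, none was called between CH and CV or between GH and CH, and 2 were called between GV and CV. Txnip, a regulator of thioredoxin, was higher in GV (0.44 ± 0.13, adjusted p = 0.030) and Acot1, an acyl-CoA thioesterase, lower (-0.21 ± 0.07, adjusted p = 0.032). Without CV2, the adjusted p was 0.25 for Txnip and 0.20 for Acot1. The targets Angptl4, Ucp3 and Cyp4a14 had no count in any library.

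Of 11 tested genes of peroxisomal oxidation, 1, the carnitine octanoyltransferase Crot, was higher in CH than in CV, and 4 were called between GV and CV, 3 of them higher. Of 11 other genes of mitochondrial oxidation and ketone use, 2, Bdh1 and Acsf2, were lower in CH than in CV. Between GV and CV, 1 of the 11 was higher, Oxct1, and 4 were lower, Hsd17b10 (-0.32, adjusted p = 0.0069), Eci1 (-0.28, adjusted p = 0.023), Bdh1 (-0.29, adjusted p = 0.025) and Acsf2 (-0.37, adjusted p = 0.030). With the length trend taken out, Hsd17b10, Eci1 and Acsf2 no longer passed (adjusted p = 0.16, 0.19 and 0.053), and each of these 4 calls was lost without CV1 or CV2 (adjusted p up to 0.19). Bdh1, which interconverts the 2 main ketone bodies, stood at 29.3 and 25.9 CPM in CH, 42.9 and 38.3 in CV, 33.7 and 32.1 in GH and 33.0 and 33.1 in GV. CH lay lowest and CV highest. CH minus CV was -0.56 ± 0.09 (adjusted p = 0.0030), which no library ended. Oxct1, the enzyme that lets cells burn ketone bodies, stood at 405 and 417 CPM in CH, 464 and 433 in CV, 491 and 494 in GH and 514 and 546 in GV. It was higher in GV than in CV by 0.24 ± 0.06 (adjusted p = 0.0092), a call that did not hold without CV2. It was also higher in GH than in CH by 0.26 ± 0.06 (adjusted p = 0.041). In glycerolipid synthesis, 3 of 12 genes were called between CH and CV and 3 between GV and CV. Lpin3, a phosphatidate phosphatase, stood at 25.3 and 21.8 CPM in CH, 10.1 and 11.9 in CV, 14.9 and 15.9 in GH and 13.0 and 14.9 in GV. CH lay above all other libraries and CV below them. CH minus CV was 1.10 ± 0.12 (adjusted p = 0.00042), which no library ended. Lpin3 was also lower in GH than in CH (-0.61 ± 0.12, adjusted p = 0.020). Of 9 other droplet genes tested, 1 was called between CH and CV and 2 between GV and CV. The first was G0s2, the inhibitor of the Pnpla2 lipase, at 27.1 and 24.1 CPM in CH, 39.5 and 35.1 in CV, 32.4 and 30.3 in GH and 25.6 and 29.4 in GV. CH minus CV was -0.54 ± 0.10 (adjusted p = 0.0063), lost without CH2 or CV1 with an adjusted p of up to 0.082. G0s2 was also lower in GV than in CV (-0.44 ± 0.10, adjusted p = 0.0062), a value of -0.13 (adjusted p = 0.40) with the length trend taken out, and the call was lost without CV1 or GV1 (adjusted p up to 0.064). Abhd5, the activator of Pnpla2, was higher in GV than in CV (0.32 ± 0.08, adjusted p = 0.012, and 0.13 without CV2). The droplet genes Plin1, Cidec and Fitm1 had no count.

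**Figure D5:**
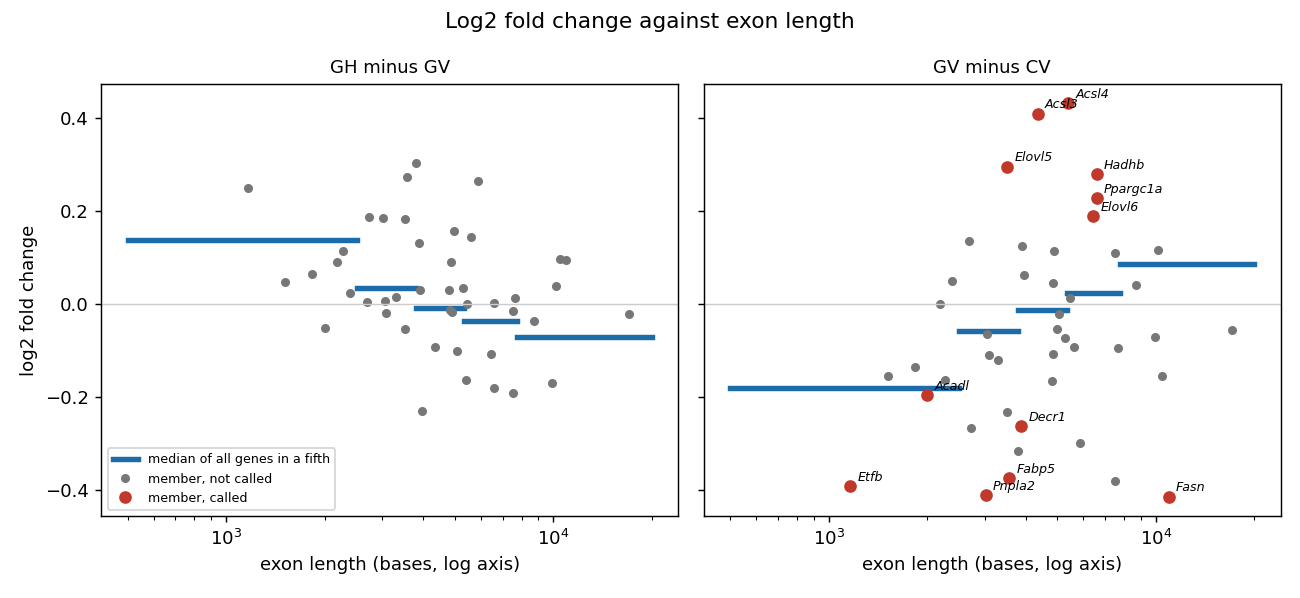
Log2 difference against annotated exon length (log axis, bases) for the 44 members with a mean of 5 CPM or more, in GH minus GV and in GV minus CV, with the median of all genes in each length bin holding 20% of genes as a blue line, clipped to the plotted range, and called members in red. The line for GV minus CV runs from -0.18 in the bin of shortest genes to 0.09 in that of the longest, and Etfb lies near its short end.

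Exon length bears on 6 of the 32 calls. With the trend taken out, the calls on Elovl6, Acadl, Decr1, Etfb and Ppargc1a between GV and CV, and on Etfb for the difference of changes, no longer passed. Those on Fasn, Elovl5, Acsl3, Acsl4, Cpt1b, Hadhb, Pnpla2 and Fabp5 between GV and CV did pass. For Fasn the value was -0.50 (adjusted p = 0.00020), for Acsl3 0.42 (adjusted p = 0.00031) and for Acsl4 0.43 (adjusted p = 0.0012). A further 4 members crossed the threshold with this correction. Among them Acaca was at -0.17 (adjusted p = 0.029) and Acadvl at 0.23 (adjusted p = 0.013). No call on a member changed sign under any alternative.

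Precision set a limit on what could be seen. For the 44 members with 5 CPM or more, the median SE of a pairwise log2 difference was 0.07, and that of a difference of changes 0.10. The log2 difference was within 0.2 of 0 for 35 of the 50 members between CH and CV, 41 between GH and GV, 40 between GH and CH and 32 between GV and CV.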

How the data were processed

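Stranded libraries were made from total RNA depleted of ribosomal RNA, per the labels' protocols. Tools listed in the submitters' processing notes are StringTie 2.1.3b, HISAT2 2.1.0, Trimmomatic and bcl2fastq 2.20.0, with the build GRCm38 (mm10). Per the file headers, the authors deposited counts, FPKM and TPM per gene and library. The 8 count columns were used, and 16 columns of values were not. The strand setting of the counting is not given in the sources used here, so reads of antisense or overlapping genes could not be told apart.

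Libraries held 39619305 to 45698186 counts. Counts were tested with edgeR 4.0.16 in R 4.3.3 (TMM scaling, filterByExpr, quasi-likelihood F test, 1 mean per code over all 8 libraries), which kept 17644 genes, with Benjamini-Hochberg adjustment and a threshold of 0.05. CPM values are TMM-scaled. The common biological coefficient of variation was 0.0752. Replicates differed by more than sampling noise, with a chi-square per degree of freedom of 5.40 to 14.5. Exon lengths are the union of exons in GENCODE M21. Alternatives were DESeq2 1.42.0, upper-quartile scaling, no filter and a stricter filter on low counts, a replicate block, only the 2 codes compared, leaving out each library and, chosen after seeing the data, a correction for exon length.

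The members and lists were chosen with earlier results of these data known. Named were every member called in a comparison, a set of textbook members, the member with the smallest adjusted p of each role, at most 3 called genes of each other list in a comparison, and S1pr1; other members were given by range.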

Additional observations from a re-analysis of the deposited data

Results flagged for a closer look

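The H minus V difference was not the same in C and G libraries for 5 members, by edgeR's test of the difference itself. It was larger in G than in C by a log2 value of 0.48 for Fasn (adjusted p = 0.013), 0.51 for Acads (adjusted p = 0.020) and 0.41 for Etfb (adjusted p = 0.035). It was smaller in G by a log2 value of -0.35 for Elovl5 (adjusted p = 0.032) and -0.35 for Acsl3 (adjusted p = 0.026). The CV libraries stood apart for Fasn, Elovl5 and Acsl3, the CH libraries for Acads and the GV libraries for Etfb. Etfb is the member whose value came to 0.07 with the exon length trend taken out. Each of the 5 calls was lost without CV2, GH1 or GH2, with adjusted p-values between 0.065 and 0.16.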

How the results depend on the processing

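No call on a member changed sign, and 5 of 32 held under every alternative. Among all genes, calls between GH and GV (226, of which 202 higher) numbered 668 with DESeq2 (479 higher and 189 lower), 575 without a filter, 509 with a stricter one, 137 with the replicate block, 45 with the length correction and 31 with only those 2 codes. Calls between GH and CH (320) numbered 567 with DESeq2, 552 without a filter and 203 with the replicate block. Calls on the difference of changes (1296, 694 higher and 602 lower) numbered 2022 with DESeq2 (877 and 1145) and 1416 with upper-quartile scaling (606 and 810). Members called between GH and GV (0) numbered 1 with DESeq2, 1 without a filter and 1 with a stricter one, in each case Fabp5. Those between CH and CV (10) numbered 6 with the block, those between GH and CH (4) numbered 1 with the block and 2 with only those 2 codes, and those for the difference of changes (5) numbered 8 with DESeq2. The cause of these shifts was not tested.

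Leaving out each library gave 255 to 2169 genes between CH and CV, 8 to 843 between GH and GV, 45 to 415 between GH and CH, 1950 to 4444 between GV and CV and 56 to 1450 for the difference of changes. For members the ranges were 1 to 12, 0 to 1, 0 to 5, 5 to 14 and 0 to 8. A code left with 1 library was assumed to vary like the others. Same-numbered libraries did not deviate together (correlations of -0.07 to 0.10 over 6 pairs of codes), so the numbers were not taken as pairs, and the block appears as an alternative only. The difference of changes needs all 4 codes, so it has no fit with 2.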
